A study of Homo sapiens with 6 samples.

Results

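The genes described here are 10 hypoxia genes: HIF1A, which encodes the oxygen-regulated subunit of the transcription factor HIF-1, the HIF prolyl hydroxylase genes EGLN1 and EGLN3, and the targets NDRG1, VEGFA, BNIP3, BNIP3L, FAM162A, P4HA1 and ANKRD37. They were taken by symbol from a table of 26485 entries, and all 10 were found in it. Each is protein-coding in the annotation used (GENCODE release 29). Enough counts for a test were found for 9 of them. EGLN3 had 0 to 3 counts in each library and was not.

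The libraries came from REH, an established human cell line of B-precursor acute lymphoblastic leukemia. One group of cells was given DMSO, the solvent, and the other 25 µM ML141, a compound that inhibits the small GTPase CDC42. Both were collected after 24 h in ordinary cell culture with 5% CO2, and no oxygen level or hypoxia treatment is given in the labels. Each group had 3 libraries, from independent experiments. All were of 1 line at 1 dose and 1 time, with the solvent as the control.

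HIF-1 is a pair of proteins, the HIF alpha subunit and its constant partner ARNT. In oxygen, the EGLN enzymes hydroxylate prolines of the alpha subunit, VHL binds the hydroxylated protein, and a ubiquitin ligase marks it for destruction. When oxygen is low the alpha subunit is stable and the pair binds DNA at a short core motif near its targets, which serve glucose use, blood vessel growth, removal of mitochondria and collagen folding. EGLN1 and EGLN3 are themselves targets, a feedback. The control of HIF-1 is mainly on the protein, which RNA counts do not measure, and several targets also answer to other transcription factors.

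The core motif was searched in the form ACGTG in promoter windows from RefSeq (GRCh38.p14, the same build as the hg38 named by the submitters). The aim was to show which of the genes carry that form close to a listed transcript start. It was read on both strands as ACGTG or CACGT, and the palindrome CACGTG counts as a match on each strand. Other forms of the core were not searched, so the matches and shares below cover ACGTG alone. A window runs from 250 bases before a transcript start to 50 bases after it, and that RefSeq start is the start meant below. Windows were listed for 7 of the 10 genes, and those of BNIP3, EGLN1, P4HA1, FAM162A and ANKRD37 held the motif, while those of HIF1A and EGLN3 did not. NDRG1, VEGFA and BNIP3L had no window. Below, capitals mark the matches, and each sequence is written 5′ to 3′ on the gene's own strand.

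BNIP3 (chr10:131982014-131982123, minus strand) and FAM162A (chr3:122383982-122384175, plus strand) are shown from 200 bases before the start up to the first annotated exon base. EGLN1 (chr1:231422283-231422312, minus strand), P4HA1 (chr10:73096935-73096964, minus strand) and ANKRD37 (chr4:185396676-185396705, plus strand) are shown as 30 bases around the matches, which there lie in an annotated exon. The match begins 134 bases before the start in BNIP3, 84 in FAM162A, 13 in EGLN1, 86 in P4HA1 and 162 in ANKRD37, which has another at 143. These RefSeq starts differ from the GENCODE gene ends given further below. In EGLN1, P4HA1 and ANKRD37 the matches lie inside the gene as given there.
BNIP3: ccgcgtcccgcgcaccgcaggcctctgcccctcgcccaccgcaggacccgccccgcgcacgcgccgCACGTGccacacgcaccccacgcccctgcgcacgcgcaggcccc
FAM162A: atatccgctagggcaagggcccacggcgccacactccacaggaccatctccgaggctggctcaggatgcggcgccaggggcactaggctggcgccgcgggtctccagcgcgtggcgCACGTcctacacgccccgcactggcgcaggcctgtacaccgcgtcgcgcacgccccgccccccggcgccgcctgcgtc
EGLN1: gggccgtggtgtACGTGcagagcgcgcaga
P4HA1: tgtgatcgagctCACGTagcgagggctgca
ANKRD37: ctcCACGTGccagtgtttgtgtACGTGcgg

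The palindrome stands in BNIP3 and ANKRD37. Of all 35116 windows of this length 21.4% hold the motif and 7.26% the palindrome. Per gene, the motif was found for 33% of the 8644 tested genes with a window, and for 31.5% of those higher, 35.4% of those lower and 32.4% of those not called with ML141. The 5 genes printed above did not share a direction in the counts that follow: EGLN1 rose, BNIP3 and FAM162A fell, and P4HA1 and ANKRD37 did not pass the test. A match is a run of letters and does not show that HIF binds there.

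Total counts were 8284299 to 12308039 per library, where 1 count stands for 0.0754 to 0.13 CPM (a library's counts brought to a common total, with TMM factors). The detection limit, taken as 3 counts, was 0.226 to 0.389 CPM across libraries and reflects counting error alone. The B-precursor label, though not the leukemia, was checked on markers of precursor B cells, of which 7 of 8 were tested. Their summed level was 6030 to 6580 CPM in DMSO and 7880 to 8240 CPM in ML141. Most of it in DMSO came from DNTT (2407 CPM) and RAG1 (1768 CPM). VPREB1 was listed at 0 or 1 count in every library. By the test described below, 6 of these markers rose and 0 fell, where 26.7% of all tested genes rose and 27.7% fell. The part of these markers in the results below was not tested. T cell and erythroid markers summed to at most 0.0964 and 0.104 CPM, with CD3D, CD2, HBB and HBA1 at 0. Myeloid markers summed to 2.59 to 4.24 CPM in DMSO and 2.96 to 6.1 CPM in ML141, mostly CSF1R (3.24 and 3.45 CPM), with FCGR3A at 0.

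The comparison asked which of these transcripts differ between REH cells given ML141 and cells given DMSO. By edgeR's quasi-likelihood test at an adjusted p of 0.05, 5 of the 9 tested genes rose (HIF1A, EGLN1, NDRG1, VEGFA and BNIP3L), 2 fell (BNIP3 and FAM162A) and 2 did not pass (P4HA1 and ANKRD37). That is 77.8% of 9 genes, where 54.4% of all 11454 tested genes were called, 26.7% higher and 27.7% lower. The median log2 fold change of the 9 was 0.38, against 0.02 over all tested genes. In 8 of the 9 the groups did not overlap, as in 61.2% of all tested genes. With so many genes changed in this comparison, a call by itself was common. The sizes ranged widely: NDRG1 rose 4.69-fold and FAM162A fell 1.94-fold, while HIF1A, EGLN1, BNIP3L and BNIP3 moved by 1.23- to 1.31-fold. With library totals or upper-quartile factors BNIP3 did not pass and 1 gene fell. Without DMSO replicate 2, 4 of the 9 were called, and likewise without DMSO replicate 3.

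**Figure D1:**
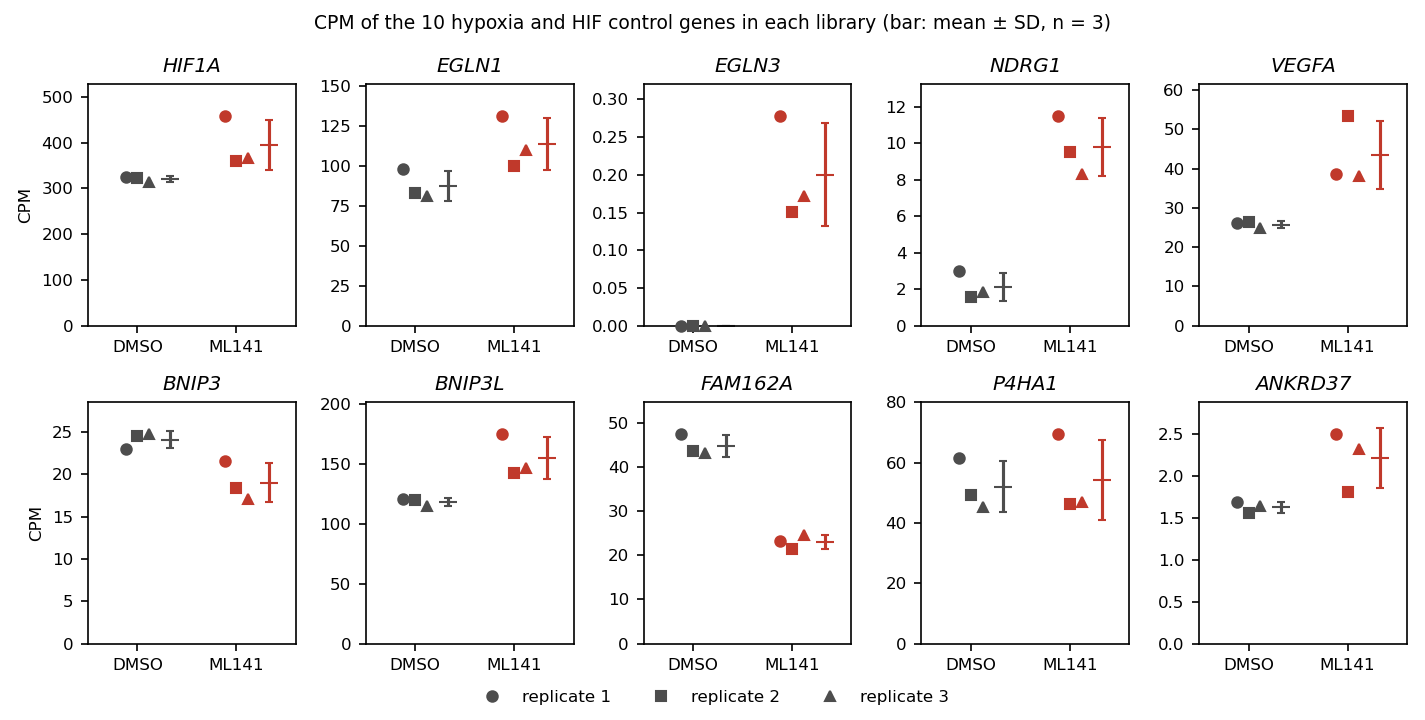
CPM (vertical axes, from 0, each gene on its own scale) of the 10 genes in each library, grouped as DMSO (grey) and ML141 (red); the marker shape gives the replicate number and the bar beside the points is the mean ± SD (n = 3). Of the tested 9, NDRG1 and FAM162A show the widest gaps between groups relative to their scales, and P4HA1 is the gene whose groups overlap.

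HIF1A is the abundant member of the set (chromosome 14, 61695513 to 61748259, plus strand, hg38). Its level was 325.9, 322.4 and 314.1 CPM in DMSO replicates 1, 2 and 3 and 458.2, 359.6 and 366.5 CPM in ML141 replicates 1, 2 and 3. All ML141 libraries lay above all DMSO libraries, and ML141 replicate 1 stood well above the other two. HIF1A rose 1.23-fold, by 0.30 on the log2 scale (SE 0.0966, 95% interval 0.09 to 0.51, edgeR adjusted p = 0.0203). Leaving out DMSO replicate 1, 2 or 3 gave edgeR adjusted p of 0.053, 0.0697 and 0.0736, so the call was lost each time. The log2 fold change was then 0.308, 0.299 and 0.28, close to the full fit, with a larger SE of 0.118, 0.121 and 0.118. Without ML141 replicate 1 the rise was 0.18 on the log2 scale (edgeR adjusted p = 0.0451). On the same strand, AL137129.1 shares 3.48% of the exon bases of HIF1A. The antisense gene HIF1A-AS1 covers 2.75% of them, and the library kit does not mark strand. Such opposite-strand overlap was 4.99% in VEGFA, 1.61% in P4HA1, 1.44% in BNIP3L and 0.0791% in FAM162A.

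The partner and the other alpha subunits were lower in level than HIF1A. ARNT rose slightly, from 85.2 ± 2.68 to 99.4 ± 3.22 CPM (SD, n = 3), by 0.22 on the log2 scale (edgeR adjusted p = 0.0342). That call was lost in 5 of 6 fits that leave out 1 library, with adjusted p of 0.0586, 0.103 and 0.132 without DMSO replicate 1, 2 or 3 and 0.0599 and 0.0709 without ML141 replicate 2 or 3. EPAS1, which encodes HIF-2 alpha, was at 1.93 ± 0.273 and 2.62 ± 0.293 CPM, a log2 difference of 0.44 that did not pass (95% interval -0.11 to 1.00, edgeR adjusted p = 0.157). HIF3A had 0 counts in every library and ARNT2 had 1 count in all, so neither was detected, at this depth and with an annotation that is not known.

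EGLN1, the main HIF prolyl hydroxylase in most cells (chromosome 1, 231363751 to 231425044, minus strand), read 98.0, 82.9 and 81.3 CPM in DMSO and 131.4, 99.8 and 110.0 CPM in ML141. The groups did not overlap, but the gap was narrow between the highest DMSO library, replicate 1, and the lowest ML141 library, replicate 2. EGLN1 rose 1.302-fold, by 0.38 on the log2 scale (SE 0.115, edgeR adjusted p = 0.0141). The call was lost without DMSO replicate 2 (adjusted p = 0.0726) or DMSO replicate 3 (adjusted p = 0.0706), and without ML141 replicate 1 the rise was 0.26.

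EGLN3, a hydroxylase gene strongly induced by hypoxia in many tissues (chromosome 14, 33924231 to 34462774, minus strand), was at the edge of detection. It had 0 counts in each DMSO library and 3, 2 and 2 counts in ML141 replicates 1, 2 and 3. No library exceeded the limit of 3 counts, so no fold is given. With no low-count filter EGLN3 entered the fit and did not pass (edgeR adjusted p = 0.0528).

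The remaining hydroxylases and the degradation machinery went both ways. HIF1AN, the asparagine hydroxylase that blocks HIF from its coactivators, rose from 113.8 ± 1.25 to 147.5 ± 1.84 CPM, 1.295-fold (edgeR adjusted p = 0.00116). VHL, the receptor for hydroxylated HIF, was at 231.8 ± 15.3 and 247.9 ± 11.6 CPM, a log2 difference of 0.10 that did not pass (95% interval -0.08 to 0.27), though with library totals it did (0.27, edgeR adjusted p = 0.014). EGLN2 had 2 counts in DMSO and 1 in ML141, and P4HTM was listed at 0. Of the exon bases of EGLN2 66.6% are shared with the read-through gene RAB4B-EGLN2, also listed at 0, and how reads in shared exons were counted is not given in the sources used here. For EGLN2, P4HTM and VPREB1 a low count therefore does not show that the gene was silent, since the annotation behind the counts is not known. The same limit holds for the other genes listed at or near 0.

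In the whole list of HIF subunits, hydroxylases and degradation genes, 16 of 21 were tested, 7 rose and 5 fell (median 0.23 on the log2 scale). With library totals in place of TMM factors the counts were 9 and 4. Among all tested genes, with TMM factors, 26.7% rose and 27.7% fell. CREBBP, a histone acetyltransferase that HIF recruits, rose 1.70-fold to 443.3 ± 18.2 CPM, and SIAH2, a ubiquitin ligase that targets EGLN proteins, rose 1.43-fold. Parts of the VHL ligase fell: RBX1, its RING subunit, fell 1.73-fold from 63.0 ± 6.31 CPM and TCEB1, the elongin C gene, fell 1.496-fold. SENP1, a SUMO protease acting on HIF1A, fell 1.40-fold, and 8.33% of its exon bases overlap PFKM on the opposite strand.

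NDRG1, a stress-response gene widely used as a hypoxia marker (chromosome 8, 133237171 to 133302022, minus strand), had the largest change of the tested 9. It had 23, 15 and 19 counts in DMSO and 124, 126 and 97 in ML141, or 2.98, 1.555 and 1.83 CPM against 11.5, 9.502 and 8.34 CPM. Every ML141 library was far above the highest DMSO library, replicate 1. NDRG1 rose 4.69-fold, by 2.23 on the log2 scale (SE 0.25, 95% interval 1.68 to 2.77, edgeR adjusted p = 1.68e-05). Pooled over libraries, the 57 counts of DMSO against 347 of ML141 put the ratio at 4.73 (counting interval 3.57 to 6.38). A counting interval leaves out variation between libraries. Even after the rise it was a weakly expressed gene.

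VEGFA, the vascular growth factor (chromosome 6, 43770184 to 43786487, plus strand), was even across the DMSO libraries at 26.1, 26.3 and 24.8 CPM. In ML141 it read 38.7, 53.4 and 38.2 CPM, with replicate 2 above the others. VEGFA rose 1.69-fold, by 0.76 on the log2 scale (SE 0.139, edgeR adjusted p = 6.67e-04). It was the only one of the 10 genes highest in ML141 replicate 2.

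Other secreted and vascular targets were scarce. In that list 6 of 12 genes were tested, 4 rose and 0 fell (median 1.24 on the log2 scale). Over all tested genes 26.7% rose and 27.7% fell. Besides VEGFA they included STC2, a secreted glycoprotein, at 0.578 ± 0.228 and 2.13 ± 0.082 CPM in DMSO and ML141, and ANGPTL4, an inhibitor of lipoprotein lipase, at 0.635 ± 0.39 and 2.06 ± 0.395 CPM. ADM, a peptide hormone that HIF induces in many cells, was lower at 1.32 ± 0.278 against 2.12 ± 0.386 CPM and did not pass (edgeR adjusted p = 0.0593); it was named after its value was seen.

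BNIP3 and BNIP3L encode related receptors of the outer mitochondrial membrane that pass mitochondria to autophagy, and both are known HIF targets. They moved in opposite directions. BNIP3 (chromosome 10, 131966455 to 131982013, minus strand) read 22.9, 24.6 and 24.8 CPM in DMSO and 21.6, 18.4 and 17.1 CPM in ML141. The ML141 libraries were all lower, replicate 1 by the least. BNIP3 fell 1.27-fold, by 0.34 on the log2 scale (SE 0.126, edgeR adjusted p = 0.0359). That call was lost in 8 of 14 alternative settings, all of which kept the direction. With upper-quartile factors the log2 fold change was -0.244 (edgeR adjusted p = 0.107) and with library totals -0.172 (edgeR adjusted p = 0.245), both smaller. With no low-count filter it was -0.323 (SE 0.14, edgeR adjusted p = 0.0614) and by the DESeq2 Wald test -0.344 (SE 0.156, adjusted p = 0.0538), close in size with a wider error. The edgeR adjusted p was 0.107, 0.0991, 0.0689 and 0.143 in the fits without DMSO replicate 2, DMSO replicate 3, ML141 replicate 2 and ML141 replicate 3. In the authors' deposited table the adjusted p of BNIP3 was 0.0551.

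BNIP3L (chromosome 8, 26382898 to 26505636, plus strand) read 121.1, 119.8 and 114.9 CPM in DMSO and 175.4, 143.0 and 146.8 CPM in ML141. No ML141 library came near the DMSO libraries, and replicate 1 was the highest. BNIP3L rose 1.31-fold, by 0.39 on the log2 scale (SE 0.0925, edgeR adjusted p = 0.00391), and kept its call under every alternative run. Within libraries, where scaling cancels, the log2 ratio of BNIP3L to BNIP3 was 2.40, 2.28 and 2.21 in DMSO and 3.02, 2.96 and 3.10 in ML141. The balance shifted toward BNIP3L by 0.73 on the log2 scale, 1.66-fold, with groups that did not overlap (exact 2-sided permutation test, p = 0.1, its lowest possible value with 3 libraries a group).

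FAM162A, a mitochondrial protein linked to cell death in hypoxia (chromosome 3, 122384176 to 122412334, plus strand), fell the furthest of the set. It read 47.5, 43.6 and 43.0 CPM in DMSO and 23.3, 21.4 and 24.6 CPM in ML141. The libraries of each group were close together and far from the other group. FAM162A fell 1.94-fold, by 0.95 on the log2 scale (SE 0.107, edgeR adjusted p = 1.68e-05), and kept its call under every alternative run.

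Of the list of mitochondrial and mitophagy targets 7 of 8 genes were tested, 4 rose and 3 fell, or 4 and 2 with library totals. BNIP3, BNIP3L and FAM162A are counted there, and besides them 3 rose and 1 fell. Among all tested genes 26.7% rose and 27.7% fell. LONP1, the protease of the mitochondrial matrix, rose 1.80-fold to 224.8 ± 13.9 CPM. MXI1, an antagonist of MYC, rose 2.08-fold to 32.3 ± 2.95 CPM, and NDUFA4L2, a paralog of a respiratory chain subunit, rose 3.11-fold to 8.04 ± 0.926 CPM. HIGD1A, a small protein of the inner membrane, fell 1.51-fold from 41.2 ± 1.69 CPM, and 10.6% of its exon bases overlap AC006059.2 on the same strand.

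P4HA1, a catalytic subunit of the collagen prolyl hydroxylase (chromosome 10, 73007217 to 73096974, minus strand), did not pass the test. It read 61.6, 49.2 and 45.3 CPM in DMSO and 69.6, 46.3 and 46.9 CPM in ML141. Replicate 1 was the highest in both groups, and the other ML141 libraries lay inside the DMSO range. The log2 difference of 0.06 had a 95% interval of -0.30 to 0.42 (edgeR adjusted p = 0.768), and it was -0.16 without ML141 replicate 1 and -0.03 without DMSO replicate 3. Its paralog P4HA2 rose 3.18-fold from a low level, with 31 counts in DMSO and 126 in ML141, and 14.8% of its exon bases overlap P4HA2-AS1. PLOD1, a collagen lysyl hydroxylase, fell 1.64-fold from 34.0 ± 1.96 CPM, and LOXL2, a lysyl oxidase, rose 1.96-fold to 4.08 ± 0.579 CPM. In this list of matrix genes 4 of 6 were tested, 2 rose and 1 fell, where 26.7% of all tested genes rose and 27.7% fell.

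ANKRD37, a small ankyrin-repeat protein (chromosome 4, 185396021 to 185400628, plus strand), had few counts: 13, 15 and 17 in DMSO and 27, 24 and 27 in ML141. As 1.69, 1.555 and 1.64 against 2.50, 1.81 and 2.32 CPM, the groups did not overlap, yet the difference of 0.43 on the log2 scale did not pass (95% interval -0.15 to 1.02, edgeR adjusted p = 0.191). The 45 counts of DMSO against 78 of ML141 put the ratio at 1.35 (counting interval 0.922 to 1.99), so a rise of NDRG1's size lay outside what these counts allow, while a small one was not detectable at this depth.

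**Figure D2:**
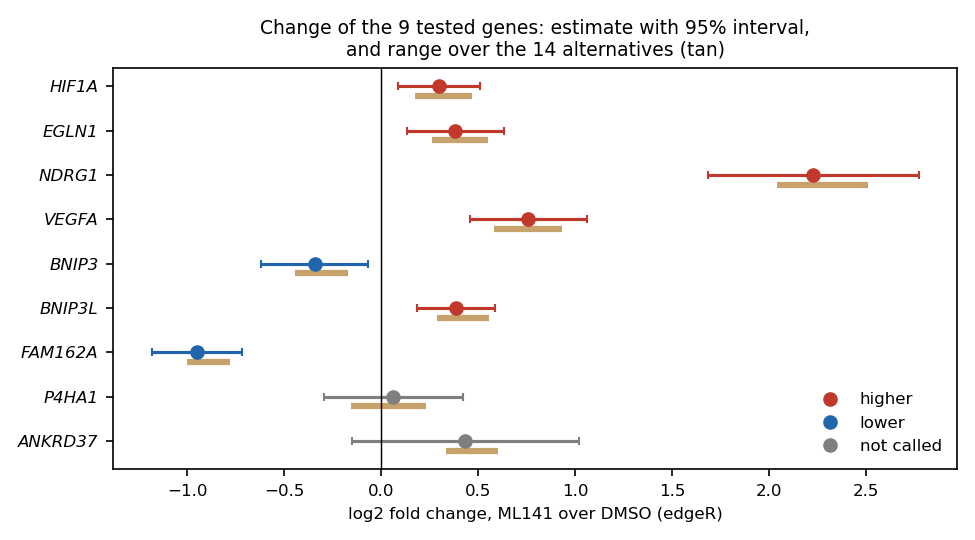
Log2 fold change of the 9 tested genes, ML141 over DMSO (horizontal axis), with the 95% interval from edgeR (coloured point and whiskers: red higher, blue lower, grey not called) and, in tan, the lowest to the highest estimate over 14 alternative settings. NDRG1 at 2.23 and FAM162A at -0.95 lie far from 0, and the tan bar crosses 0 for P4HA1 alone.

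Replicate 1 stood out among the libraries for these genes. In ML141, 8 of the 10 genes were highest in replicate 1, where 39.7% of all tested genes were. The 8 include EGLN3, which was not tested and had 3 counts there against 2 and 2. In DMSO, 7 of the 9 genes with a count were highest in replicate 1, where 37.7% of all tested genes were. In the sample descriptions both replicate 1 libraries share a tag, CV, that the others lack, and its meaning is not given. With both left out, 6 of the 9 genes were called: HIF1A did not pass (0.19 on the log2 scale, edgeR adjusted p = 0.065), and P4HA1 was at -0.02. EGLN1 was then at 0.35, NDRG1 at 2.39, VEGFA at 0.84, BNIP3L at 0.30, BNIP3 at -0.475 and FAM162A at -0.92, all called. Without ML141 replicate 1 alone all 7 calls held, with log2 fold changes of 2.10 for NDRG1, 0.83 for VEGFA, 0.29 for BNIP3L and -0.96 for FAM162A.

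Levels can be compared between genes only per length, and CPM per kilobase of exon was used for that. In DMSO, HIF1A was the highest at 75.4 ± 1.43 CPM per kilobase, followed by BNIP3L (30.5 ± 0.838), P4HA1 (17.8 ± 2.9) and EGLN1 (12.3 ± 1.3). Then came FAM162A (11.8 ± 0.635), BNIP3 (8.42 ± 0.349), VEGFA (6.83 ± 0.22), ANKRD37 (1.43 ± 0.0582) and NDRG1 (0.565 ± 0.201). Only the neighbours EGLN1 and FAM162A overlapped in range. With ML141, VEGFA at 11.5 ± 2.29 CPM per kilobase stood above BNIP3 (6.65 ± 0.805) and FAM162A (6.09 ± 0.42), and NDRG1 at 2.60 ± 0.423 above ANKRD37 (1.94 ± 0.314). There the ranges of P4HA1 and EGLN1, EGLN1 and VEGFA, and BNIP3 and FAM162A overlapped. Lengths are those of the annotation used here, which may not be the one the reads were counted on.

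**Figure D3:**
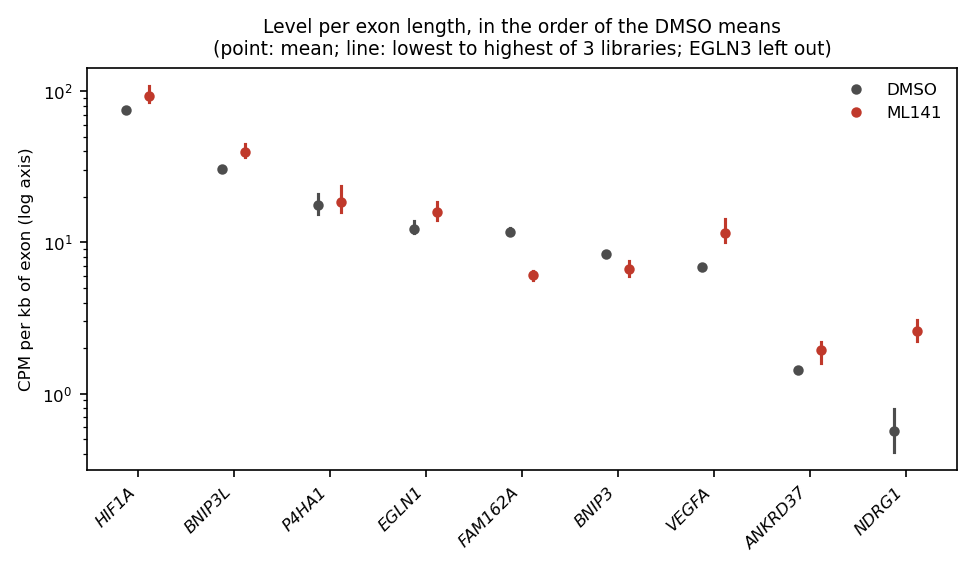
CPM per kilobase of exon (vertical log axis) of 9 genes in DMSO (grey) and ML141 (red), ordered by the DMSO mean; points are means and lines run from the lowest to the highest of 3 libraries. EGLN3 is left out because it had no count in DMSO. VEGFA and NDRG1 move up past neighbours in the order, and FAM162A moves down.

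Genes with the most similar pattern to HIF1A over the 6 libraries, by Pearson's r of log2 CPM, were ZNF189 (0.9973), BROX (0.9958) and ACAP2 (0.9946). For NDRG1 they were MSR1 (0.9985), ALDH6A1 (0.9985) and LINC01341 (0.9984). These are descriptions over 6 libraries that also share depth and group: 233 genes, 2.03% of the others tested, exceeded 0.95 with HIF1A and 858, or 7.49%, with NDRG1.

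Of the 24 genes of glucose use, all tested, 18 fell and 1 rose (median -0.78 on the log2 scale), and 14 fell and 1 rose with library totals. Over all tested genes the shares were the 27.7% lower and 26.7% higher given above, and a difference between this list and other genes was not tested. LDHA, which makes lactate from pyruvate, dropped 3.69-fold from a DMSO level of 1090 ± 57.6 CPM, and ENO1 (enolase) and PKM (pyruvate kinase) fell 3.03-fold and 3.11-fold. SLC2A3, a glucose transporter, rose 1.63-fold to 36.0 ± 3.81 CPM. All 5 histone demethylase genes that were listed here as HIF targets rose, with a median of 0.66, and no others were looked at. Among the 5, KDM4B rose 1.97-fold to 75.8 ± 2.15 CPM, KDM5B 1.66-fold and KDM3A 1.58-fold. These enzymes remove methyl groups from histone lysines and, like the EGLN enzymes, use oxygen.

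Of the remaining targets 16 of 22 were tested, 6 rose and 4 fell, or 10 and 3 with library totals. Among all tested genes, with TMM factors, 26.7% rose and 27.7% fell. DDIT4, an inhibitor of mTORC1, rose 5.28-fold to 162.9 ± 30.5 CPM, though 48.5% of its exon bases overlap DDIT4-AS1 on the opposite strand. BHLHE40, a transcriptional repressor, rose 3.32-fold to 5.53 ± 1.33 CPM, and CCNG2, an unconventional cyclin, rose 1.71-fold. ERO1A, an oxidase of the endoplasmic reticulum, fell 1.59-fold from 142.2 ± 19.8 CPM, with 10.9% of its exon bases opposite AL133453.1. MAFF, a small bZIP protein, fell 2.28-fold, and AK4, a mitochondrial adenylate kinase, fell from 42 counts in DMSO to 5 in ML141. The fitted log2 fold change of AK4 was -3.32, and -4.82 without ML141 replicate 3. For acid and ion balance, CA9 and CA12, carbonic anhydrases that HIF induces strongly, had 0 counts in every library.

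Over all lists together 78 of 99 genes were tested, 28 rose and 31 fell, where 26.7% of all tested genes rose and 27.7% fell. The median was 0.01 on the log2 scale, against 0.02 over all tested genes. It joins lists whose own medians ran from -0.78 (glucose use) to 1.24 (secreted and vascular). With library totals 34 rose and 24 fell. In bulk RNA, a change in the share of cells that express a gene and a change in RNA per cell cannot be told apart.

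**Figure D4:**
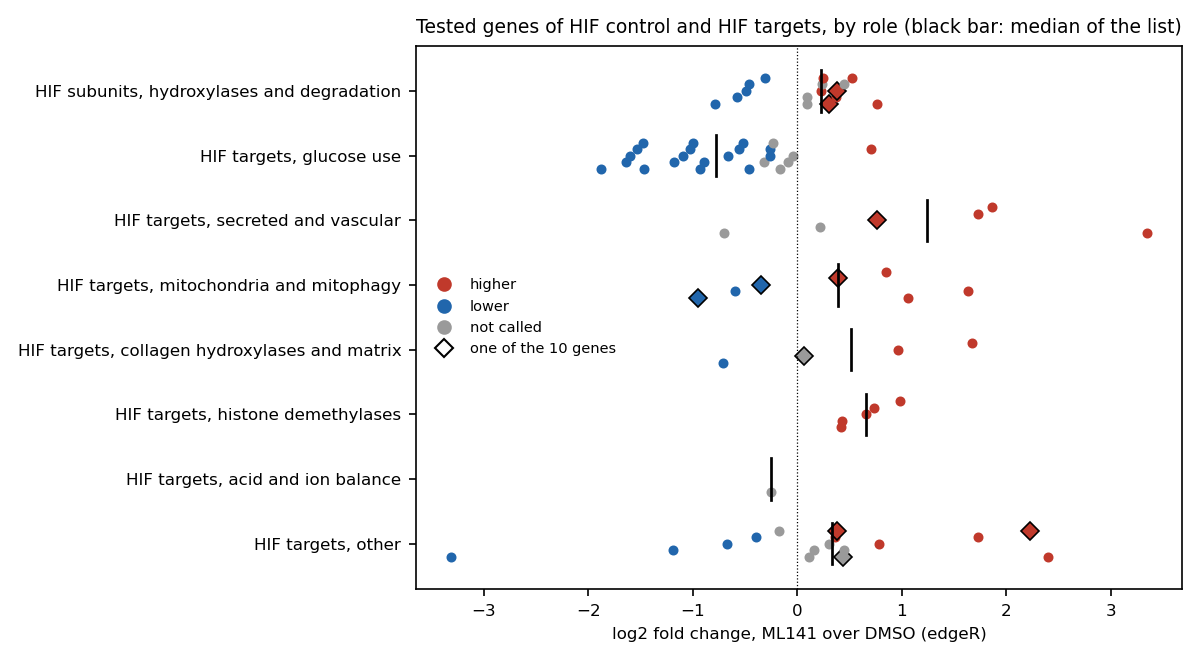
Log2 fold change, ML141 over DMSO (horizontal axis), of every tested gene in 8 lists of HIF control and target genes; red points rose, blue fell and grey did not pass, diamonds mark the genes described above, and the black bar is the list's median. EGLN1 stands in 2 lists. Most glucose genes lie left of 0, with a list median of -0.78, and SLC2A3 at 0.71 lies right of it. The listed histone demethylases lie right of 0, with a median of 0.66.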

How the data were processed

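Per the labels' protocols, total RNA of REH cells was made into 6 libraries with TruSeq RNA v2 chemistry. The authors deposited whole-number counts per gene symbol, scores (counts divided by 1 size factor per library and rounded), a log2 fold change and p-values with adjusted p-values of their own comparison. Per the submitters' processing notes the build was hg38, with DESeq2, featureCounts, Picard, Bowtie2, Trimmomatic and bcl2fastq 2.19 listed without roles. The settings, annotation and strand option behind the counts are not given. The scores were not used.

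Columns were matched to samples by the sample descriptions. Genes passing edgeR's filterByExpr (minimum count 10, minimum total 15) went into glmQLFTest with TMM factors (edgeR 4.0.16, R 4.3.3), with no term but group, and p-values were adjusted by Benjamini-Hochberg over 11454 genes. The standard error is the log2 fold change over the square root of F. No library was a copy of another (chi-square per degree of freedom between replicates 2.9 to 18.4). Of all counts 0.362% lay in 28 entries with dates for names. Alternatives were DESeq2 (1.42.0) size factors, upper-quartile factors, library totals, no or a stricter filter, the DESeq2 Wald test, limma-voom (limma 3.58.1), the replicate number as a block and each library left out. Leaving out both replicate 1 libraries was added after seeing the data. Gene positions, lengths and overlaps come from GENCODE release 29.

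The genes and lists were chosen with earlier results of these data known. The text names the 10 genes, the HIF subunits, hydroxylases and VHL, and, per list, the genes of lowest p that rose (up to 3) and that fell (up to 3), and some genes of these lists are not reported here. In all 2 pairs of genes were compared within libraries.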

Additional observations from a re-analysis of the deposited data

How the results depend on the processing

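The calls of NDRG1, VEGFA, BNIP3L and FAM162A held under all 14 alternative settings, with log2 fold changes of 2.04 to 2.51, 0.58 to 0.93, 0.29 to 0.56 and -1.002 to -0.779. HIF1A lost its call in 3 of them, EGLN1 in 2 and BNIP3 in 8, and the cause was not tested. P4HA1 was not called in any and turned to -0.033 without DMSO replicate 3 and -0.155 without ML141 replicate 1. Of the 7 genes called, 4 to 7 were called when 1 library was left out, 3 to 5 of them higher and 1 to 2 lower. The 2 lower genes became 1 with upper-quartile factors, library totals, no low-count filter or the DESeq2 Wald test. Of all genes, 5077 to 6567 were called with 1 library left out, against 6230. Upper-quartile factors and library totals shifted the median over all tested genes from 0.02 to 0.12 and 0.19 (log2), and the share of called genes that were higher from 49.1% to 59.5% and 66.1%. With both replicate 1 libraries left out, an alternative chosen after seeing the data, 6461 genes were called, HIF1A lost its call and P4HA1 was at -0.022. The within-library ratio of EGLN3 to EGLN1 is void, since EGLN3 has no DMSO count: its log2 difference was 1.739 with a pseudocount of 0.5 and 0.363 with a pseudocount of 2.

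Same-numbered libraries of the groups share a tag in the sample descriptions, and no label says what it marks. Their deviations correlated at 0.374, 0.085 and 0.178 over genes, and DMSO replicate 3 correlated best with ML141 replicate 2 (0.291). Deviations of 3 libraries around their own mean are tied to each other, so these values cannot decide whether the numbers mark pairs. The main fit did not use the numbers as pairs, and the block was run as an alternative. With the replicate block 6979 genes and the same 7 of the 10 genes were called, with edgeR adjusted p of 0.00357 for HIF1A, 6.38e-04 for EGLN1 and 0.0241 for BNIP3. Depth limits EGLN3 and ANKRD37, and EGLN2, P4HTM and HIF3A gave no value to compare.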
